A study of Mus musculus with 16 samples.

Results

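The genes described here make up the digestive machinery of the lysosome: cathepsins, glycosidases and lipid hydrolases, the proteins of its membrane, and the subunits of its proton pump. The list holds 44 genes, matched to probe sets by gene symbol, and 43 of them were measured by a probe set that names a single gene, of 18193 genes measured in all. Cd63 was not analysed here. The measured members have 93 of the 45101 probe sets, and each gene is represented by its probe set with the highest mean log2 intensity.

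Bone marrow of C57BL/6 mice was cultured for 8 days with 15 ng/ml GM-CSF, a growth factor that drives myeloid precursors into dendritic cells, supplied as supernatant of a transfected myeloma line. The non-adherent immature dendritic cells were moved to medium with 10 ng/ml GM-CSF. NCFM cells then received 10 µg/ml of Lactobacillus acidophilus NCFM, a gut bacterium sold as a probiotic, and were profiled after 4, 10 or 18 h on 3 arrays per time. The control cells of 4 h have 3 arrays, those of 10 h and of 18 h have 2. Nothing in the labels says that arrays of a group are separate mice or cultures, and the p-values therefore reflect only how far these samples spread.

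Lysosomes break down proteins, sugars and lipids that reach them by endocytosis, phagocytosis or autophagy, and their hydrolases work at the low pH that a vacuolar proton pump maintains. In dendritic cells the cathepsins cut antigens into peptides and degrade the invariant chain that guards MHC class II, and pump activity and proteolysis are regulated as the cells mature. Tfeb, a transcription factor of the MiT family, activates many lysosomal genes through promoter sites with the core CACGTG.

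Each difference is a log2 ratio, NCFM over control, of linear array intensities, with its standard error (SE) from a limma fit over all genes. A gene was called higher or lower at an adjusted p under 0.05. NCFM cells had lower Gusb, Manba, Man2b1 and Atp6v0d2 and higher Gla, Ctsk and Atp6v1d, and these differences reached 4.15-fold. Most members were not called: 14 of 43 passed at any time, 3 of them at all 3 times (Gusb, Manba and Atp6v0d2), 6 at 2 times and 5 at 1, and none was called in opposite directions at different times. At 4 h no member was called higher and 5 were called lower (11.6% of the members, against 18.3% of all genes, 5.27% higher and 13.1% lower). At 10 h 5 were called higher and 6 lower (25.6%, against 24.7% of all genes, 8.21% higher and 16.5% lower). At 18 h 3 were called higher and 7 lower (23.3%, against 23.7% of all genes, 7.4% higher and 16.3% lower). In this fit, which leaves the array numbers out, the share of members called is near that of all genes at 10 and 18 h. All genes include many dim ones, while the dimmest member, Npc1, had a mean intensity of 500. Of the 9097 genes left when dim genes were removed, 31.7%, 39.3% and 38.8% were called at 4, 10 and 18 h. The shares of the members lie below these. At 4 h 2 members, Atp6v1d and Atp6v1h, were higher at an unadjusted p under 0.05. The median difference of the members was -0.095, -0.073 and 0.067 at 4, 10 and 18 h, against -0.007, 0.008 and 0.002 over all genes. Over the 9097 genes it was -0.162, -0.19 and -0.174, below that of the members at each time.

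The arrays were taken as paired by their number, though the labels do not say what a number stands for. The counts depend on whether the fit takes this up: with the block the share of members called is above that of all genes at each time. The difference between these shares was not tested, and a share over brighter genes alone was not taken with the block. With the array number as a block 5 members were called higher and 11 lower at 4 h (37.2%, against 26.8% of all genes, 7.55% higher and 19.3% lower). At 10 h the counts were 8 and 12 (46.5%, against 31.1%, 9.95% higher and 21.2% lower), and at 18 h 6 and 11 (39.5%, against 30.5%, 9.2% higher and 21.3% lower). No call of the fit without the block was lost. Within each array number the called members had the same sign on every number, in 5 of 5, 11 of 11 and 10 of 10 at 4, 10 and 18 h, and over all members this held for 28, 37 and 31 of 43. NCFM and control arrays did not overlap for any of these 26 calls. The calls were picked on these same arrays, so neither the equal signs nor the lack of overlap adds support to them. At 10 and 18 h only 2 array numbers could be compared, and the share of all genes with equal signs was not taken. Among all members every NCFM array lay above every control array for 2 and below for 9 at 4 h, where 36.5% of all genes did not overlap (13.8% above and 22.7% below). At 10 h it lay above for 8 and below for 13 (52.1% of all genes, 23.2% above and 28.9% below). At 18 h it lay above for 9 and below for 11 (47.2% of all genes, 21.1% above and 26.1% below).

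**Figure D1:**
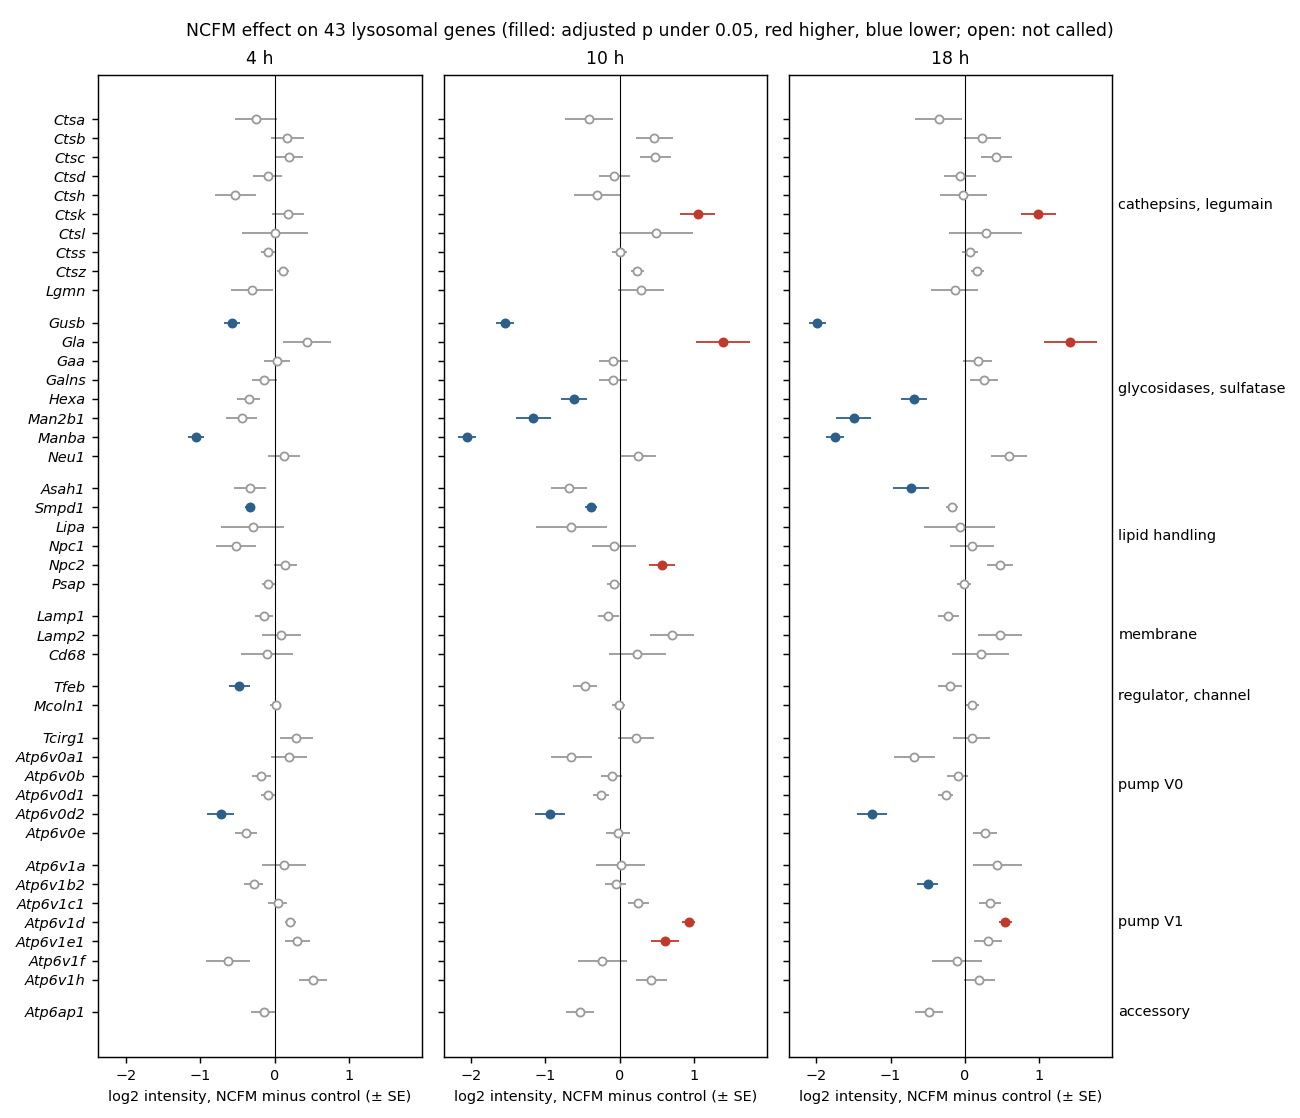
Log2 intensity difference, NCFM minus control, of the 43 measured lysosomal genes at 4, 10 and 18 h, with the SE of the fit as bars; filled points passed at an adjusted p under 0.05 (red higher, blue lower) and open points did not. Gusb, Manba and Atp6v0d2 are filled at all 3 times, and Gla and Ctsk stand apart to the right at 10 and 18 h.

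Because Tfeb is a member and its site is known, the promoters of the members were searched for CACGTG on both strands. RefSeq windows of 300 bases (GRCm38.p6, 250 bases before to 50 after the start site) matched 34 of the 43 members. Ctsb, Ctsh, Galns, Asah1, Npc1, Atp6v0d2, Atp6v1b2, Atp6v1c1 and Atp6v1h were not matched. The core was present in 12 of the 34 members (35.3%), against 8.09% of 27025 genes with a window. Among 79 other lysosome genes with a window the share was 29.1%. The same core with a flanking T, TCACGTG, whose every match also counts as a match to CACGTG, was present in 11 of the 34 members (32.4%). It was present in 26.6% of the other lysosome genes and 4.29% of all genes. Of the 11 matched members that were called at any time without the block 1, Gla, had the core, and of the 23 called at no time 11 had it. Ctsa, Ctsl and Lamp1, which have the core, were called only with the block and count among the 23. The called members Atp6v0d2, Asah1 and Atp6v1b2 had no window, so the split is incomplete. These counts describe letters in a window and say nothing of binding. The windows shown are that with the most cores (Lamp1, with 4) and that of the member called without the block that has it (Gla, with 2). Those of the called members with the lowest values relative to control that have none (Gusb and Manba) are shown too. Each is given as the 250 bases before the start site, in the direction of the gene, with CACGTG in capitals. Lamp1 lies at chr8:13158911-13159160 on the plus strand, Gla at chrX:134601006-134601255 on the minus strand, Gusb at chr5:130003050-130003299 on the minus strand and Manba at chr3:135485361-135485610 on the plus strand.
Lamp1: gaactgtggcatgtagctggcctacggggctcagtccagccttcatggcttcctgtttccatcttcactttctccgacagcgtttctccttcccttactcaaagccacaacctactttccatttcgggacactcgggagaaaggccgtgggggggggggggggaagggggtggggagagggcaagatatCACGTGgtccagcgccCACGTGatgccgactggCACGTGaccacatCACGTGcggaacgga
Gla: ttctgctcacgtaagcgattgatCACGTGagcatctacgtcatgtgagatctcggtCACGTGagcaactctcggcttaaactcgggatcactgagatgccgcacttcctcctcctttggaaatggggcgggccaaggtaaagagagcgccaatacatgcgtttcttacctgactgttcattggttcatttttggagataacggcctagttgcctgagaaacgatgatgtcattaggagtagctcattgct
Gusb: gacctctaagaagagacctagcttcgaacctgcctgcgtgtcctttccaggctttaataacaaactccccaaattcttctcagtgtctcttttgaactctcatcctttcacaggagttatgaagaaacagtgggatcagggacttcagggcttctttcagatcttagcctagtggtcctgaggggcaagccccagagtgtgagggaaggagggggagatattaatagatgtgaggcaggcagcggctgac
Manba: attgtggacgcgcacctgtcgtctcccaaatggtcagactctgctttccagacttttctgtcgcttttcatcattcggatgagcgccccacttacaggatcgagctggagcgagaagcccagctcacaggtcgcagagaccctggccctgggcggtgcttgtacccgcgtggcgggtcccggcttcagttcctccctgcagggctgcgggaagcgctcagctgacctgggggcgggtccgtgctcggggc
In Lamp1 the cores begin 61, 45, 28 and 15 bases before the start site, close together, while in Gla they begin 227 and 194 bases before it. Cores also stood in the windows of Ctsa, Ctsd, Ctsl, Lgmn, Gaa, Mcoln1, Atp6v0b, Atp6v0d1, Atp6v0e and Atp6v1a.

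Among the cathepsins and legumain 1 of 10 was called, Ctsk, a cysteine protease best known for degrading collagen in osteoclasts, and it was called higher. That is 0% of this group at 4 h and 10% at 10 and at 18 h, against 18.3%, 24.7% and 23.7% of all genes. At 4 h Ctsk had intensities of 445, 464 and 608 on the NCFM arrays and 385, 456 and 498 on the control arrays. The groups overlapped there (0.17 ± 0.22). At 10 h NCFM cells had 719, 1058 and 1167 and the control arrays 436 and 496. At 18 h they had 906, 1223 and 1438, against 503 and 688 in control cells. Every NCFM array lay above every control array at 10 and 18 h, and Ctsk rose 2.07-fold at 10 h (1.05 ± 0.24, adjusted p = 0.00726) and 1.99-fold at 18 h (0.99 ± 0.24, adjusted p = 0.0104). Without control 10 h replicate 1 the 10 h difference was 0.95 and not called (adjusted p = 0.0753, range 7.86e-05 to 0.0753 over the alternatives). Without control 18 h replicate 1 the 18 h difference was 0.76 and not called (adjusted p = 0.0924, range 1.16e-04 to 0.0924), nor was it in a fit of only the groups compared (adjusted p = 0.0652).

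The other cathepsins were not called at any time without the block. Their differences lay between -0.53 (Ctsh, an aminopeptidase) and 0.20 (Ctsc, which activates granule serine proteases) at 4 h. At 10 h they lay between -0.41 (Ctsa, the protective protein of Neu1) and 0.49 (Ctsl, an endopeptidase), and at 18 h between -0.35 (Ctsa) and 0.42 (Ctsc). No cathepsin had an unadjusted p under 0.05 at 4 h, while 3 had at 10 h (Ctsk, Ctsc and Ctsz) and 1, Ctsk, at 18 h. Ctss, which trims the invariant chain in antigen-presenting cells, had 16656, 18285 and 21483 on the 4 h NCFM arrays and 18574, 20364 and 20627 on the control arrays. Its groups overlapped at 4 and 10 h, and its differences were -0.09 ± 0.09, 0.00 ± 0.10 and 0.07 ± 0.10 at 4, 10 and 18 h. Ctsd, an aspartic protease, had differences of -0.09 ± 0.19, -0.07 ± 0.21 and -0.07 ± 0.21. Lgmn, the asparaginyl endopeptidase, had -0.31 ± 0.28, 0.29 ± 0.31 and -0.14 ± 0.31. With the array number as a block 4 more of the 10 were called. Ctsh was lower at 4 h (-0.53 ± 0.07, adjusted p = 4.05e-04) and 10 h (-0.43 ± 0.08, adjusted p = 0.00276), and Ctsa at 10 h (-0.53 ± 0.10, adjusted p = 0.0025) and 18 h (-0.48 ± 0.10, adjusted p = 0.00485). Ctsb, a cysteine protease with carboxypeptidase activity, was higher at 10 h (0.35 ± 0.11, adjusted p = 0.03), and so was Ctsl (0.31 ± 0.09, adjusted p = 0.0265). Over all alternatives these adjusted p-values reached 0.533 or more. For Ctsz, a carboxypeptidase, the probe set used had 0.24 ± 0.09 at 10 h and was not called, while its 2 dimmer probe sets were called at 10 h (0.45 and 0.36, adjusted p = 0.0116 and 0.0488 with every probe set tested).

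The glycosidases and the sulfatase held the largest differences. Of 8 genes 2 fell at 4 h (Gusb and Manba), and at 10 and 18 h 4 fell (Gusb, Manba, Man2b1 and Hexa) and 1 rose (Gla). That is 25% of this group at 4 h and 62.5% at 10 and at 18 h, against 18.3%, 24.7% and 23.7% of all genes. Manba, the beta-mannosidase that removes the last mannose of N-glycan chains, had 556, 448 and 500 on the NCFM arrays at 4 h and 1031, 1003 and 1085 on the control arrays. At 10 h the NCFM arrays had 251, 243 and 212 and the control arrays 947 and 1003. At 18 h the NCFM arrays had 259, 254 and 309 and the control arrays 820 and 1018. The groups were far apart at every time, and the lowest control array at any time lay above the highest NCFM array. Manba fell 2.08-fold at 4 h (-1.06 ± 0.11, adjusted p = 4.97e-05), 4.15-fold at 10 h (-2.05 ± 0.12, adjusted p = 1.19e-06) and 3.35-fold at 18 h (-1.74 ± 0.12, adjusted p = 3.46e-06). It has 1 probe set.

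Gusb, the beta-glucuronidase that acts on glycosaminoglycans, had 2476, 2058 and 2641 on the NCFM arrays at 4 h and 3617, 3369 and 3629 on the control arrays. At 10 h the NCFM arrays had 1307, 1282 and 1317 and the control arrays 3898 and 3684. At 18 h the NCFM arrays had 1095, 1074 and 1338 and the control arrays 4169 and 5082. The NCFM arrays lay below the control arrays at each time. Gusb fell 1.49-fold at 4 h (-0.57 ± 0.11, adjusted p = 0.00282), 2.91-fold at 10 h (-1.54 ± 0.12, adjusted p = 5.78e-06) and 3.96-fold at 18 h (-1.99 ± 0.12, adjusted p = 1.75e-06). Its dimmer probe set was called at 10 and 18 h (-1.37 and -1.44) and not at 4 h (-0.39). The calls of Manba and Gusb held under each of the 25 alternatives at each time. Gusb is often used as a reference gene in quantitative PCR.

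Man2b1, the lysosomal alpha-mannosidase, had 2923, 3588 and 4356 on the 4 h NCFM arrays and 4057, 5209 and 5462 on the control arrays. The groups overlapped at 4 h (-0.45 ± 0.21, adjusted p = 0.177), where the fit with the block called it (-0.45 ± 0.08, adjusted p = 0.00193; highest over the alternatives 0.426). At 10 h the NCFM arrays had 1669, 2529 and 2243 and the control arrays 4037 and 5553. At 18 h they had 1610, 2072 and 1976, against 4371 and 6417 in control cells. NCFM arrays were all below control arrays at these times, and Man2b1 fell 2.24-fold at 10 h (-1.16 ± 0.24, adjusted p = 0.0038) and 2.83-fold at 18 h (-1.50 ± 0.24, adjusted p = 7.98e-04), under all 25 alternatives. A dimmer probe set was called at 4 h (-1.14) and 10 h (-1.12) and not at 18 h (-0.69).

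Hexa, the alpha subunit of beta-hexosaminidase, had 3923, 5215 and 4553 on the NCFM arrays at 10 h and 6191 and 7822 on the control arrays. At 18 h it had 4133, 5833 and 5401 in NCFM cells and 7681 and 8664 in control cells. The groups did not overlap, and Hexa fell 1.54-fold at 10 h (-0.62 ± 0.17, adjusted p = 0.0212) and 1.61-fold at 18 h (-0.69 ± 0.17, adjusted p = 0.0129). The 10 h call was lost without NCFM 10 h replicate 1 (adjusted p = 0.0613), NCFM 10 h replicate 3 (adjusted p = 0.0526) or control 10 h replicate 2 (adjusted p = 0.154), over a range of 1.85e-04 to 0.154. At 18 h, leaving out control 18 h replicate 2 ended the call (adjusted p = 0.10, the highest of a range from 9.57e-05). A fit of only the groups compared also ended both (adjusted p = 0.0569 at 10 h and 0.066 at 18 h). At 4 h Hexa had 5081, 5889 and 6662 in NCFM cells and 6591, 8047 and 7718 in control cells, with overlap, and was called with the block (-0.35 ± 0.07, adjusted p = 0.00536, where the alternatives reached 0.478) and not without it (adjusted p = 0.152).

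Gla, the alpha-galactosidase that degrades globotriaosylceramide, went the other way. At 4 h it had 663, 1173 and 1335 on the NCFM arrays and 602, 859 and 822 on the control arrays. The 10 h NCFM arrays had 1308, 2240 and 2449, against 612 and 883 in control cells. The 18 h ones had 1827, 2888 and 2688, against 705 and 1161 in control cells. NCFM arrays lay above control arrays at 10 and 18 h but not at 4 h, and the array numbered 1 was the lowest of its group each time. Gla rose 2.62-fold at 10 h (1.39 ± 0.36, adjusted p = 0.0142) and 2.68-fold at 18 h (1.42 ± 0.36, adjusted p = 0.0133). The 10 h call was lost without NCFM 10 h replicate 3 (1.22, adjusted p = 0.0547) or control 10 h replicate 1 (1.13, adjusted p = 0.149), over a range of 1.63e-05 to 0.149. At 18 h, leaving out control 18 h replicate 1 ended the call (1.06, adjusted p = 0.115, the highest of a range from 1.55e-05). With the block its SE was 0.11 at 10 and 18 h, and it was called at 4 h as well (0.43 ± 0.10, adjusted p = 0.00698; 0.735 at the highest over the alternatives). A dimmer probe set was called at 18 h (1.15) and not at 10 h (0.98). The remaining glycosidases and the sulfatase were not called. Gaa, which degrades glycogen, lay between -0.09 and 0.17, Galns, a sulfatase of keratan sulfate, between -0.14 and 0.25, and Neu1, the lysosomal sialidase, between 0.12 and 0.59. Neu1 was called at 18 h with the block (0.51 ± 0.12, adjusted p = 0.00629, where the alternatives reached 0.36).

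**Figure D2:**
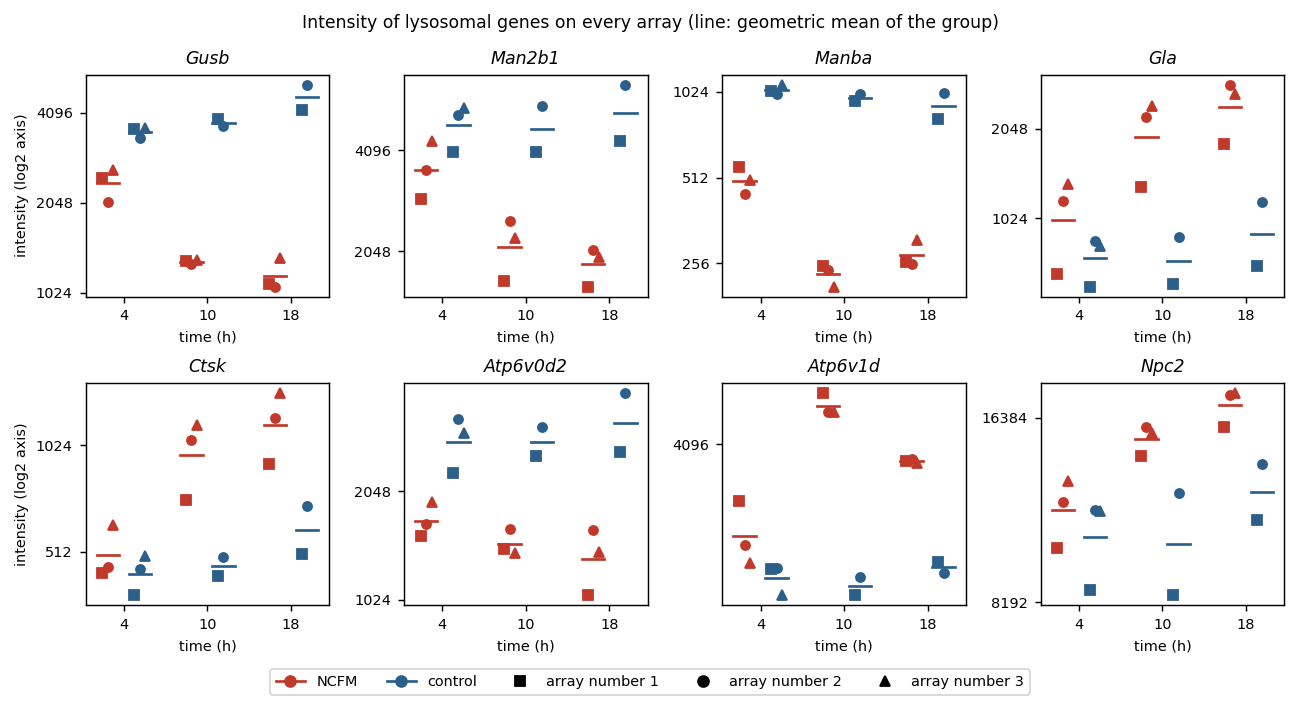
Intensity on a log2 axis of 8 called members on each of the 16 arrays at 4, 10 and 18 h, NCFM in red left of control in blue; marker shapes give the array number and lines the geometric mean of a group. Gusb, Man2b1, Manba and Atp6v0d2 lie lower in NCFM cells, Gla, Ctsk, Atp6v1d and Npc2 lie higher at 10 and 18 h, and for Gla the array numbered 1 is the lowest of each group.

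Of 6 genes for lipid hydrolases and lipid handling 3 were called at some time, in different directions. The shares called were 16.7%, 33.3% and 16.7% at 4, 10 and 18 h, against 18.3%, 24.7% and 23.7% of all genes. Smpd1, the acid sphingomyelinase, had 449, 473 and 457 on the NCFM arrays at 4 h and 590, 546 and 600 on the control arrays. NCFM cells of 10 h had 440, 451 and 406, against 559 and 567 in control cells. At 18 h the groups overlapped, with 548, 578 and 661 in NCFM cells and 641 and 700 in control cells. NCFM arrays lay below control arrays at 4 and 10 h. Smpd1 fell 1.26-fold at 4 h (-0.33 ± 0.07, adjusted p = 0.0071) and 1.30-fold at 10 h (-0.38 ± 0.08, adjusted p = 0.0044), and had -0.17 ± 0.08 at 18 h (adjusted p = 0.142). These small falls depend on the scaling: quantile normalization left -0.18 at 4 h (adjusted p = 0.0974) and -0.16 at 10 h (adjusted p = 0.155), and spike-in centring left -0.14 at 4 h (adjusted p = 0.311). Without the arrays numbered 1 the 4 h call was lost as well (-0.30, adjusted p = 0.0567, over a range of 0.00293 to 0.311).

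Asah1, the acid ceramidase, had 2886, 3775 and 4189 on the NCFM arrays at 18 h and 5499 and 6338 on the control arrays. The groups did not overlap, and Asah1 fell 1.65-fold (-0.72 ± 0.24, adjusted p = 0.0487), next to the threshold. It kept this call under 10 of 25 alternatives, over a range of 5.66e-04 to 0.232. The call did not hold without control 18 h replicate 2 (-0.62, adjusted p = 0.232), control 18 h replicate 1 (adjusted p = 0.0889), NCFM 18 h replicate 1 (adjusted p = 0.135) or NCFM 18 h replicate 2 (adjusted p = 0.0857). It was also lost without any of 6 arrays of other times, at adjusted p-values between 0.0504 and 0.0622. Quantile normalization, spike-in centring, background subtraction, trend with robust variance and a fit of only the groups compared ended it as well. With the block Asah1 was called at 4 h (-0.33 ± 0.11, adjusted p = 0.0481), 10 h (-0.79 ± 0.13, adjusted p = 8.47e-04) and 18 h (-0.83 ± 0.13, adjusted p = 5.66e-04), and over the alternatives the adjusted p at 4 and 10 h reached 0.651 and 0.378.

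Npc2, the soluble protein that hands cholesterol to the transporter Npc1, had 14190, 15835 and 15459 on the NCFM arrays at 10 h and 8412 and 12377 on the control arrays. The groups did not overlap, and Npc2 rose 1.48-fold (0.57 ± 0.18, adjusted p = 0.0341). The control arrays lay far apart, and without control 10 h replicate 1 the difference was 0.29 and not called (adjusted p = 0.398, range 0.0014 to 0.398). Leaving out NCFM 10 h replicate 2 (adjusted p = 0.0916) or NCFM 10 h replicate 3 (adjusted p = 0.0853) ended the call too, and with spike-in centring it had 0.32 (adjusted p = 0.216). Averaged probe sets (adjusted p = 0.0625), only the groups compared (adjusted p = 0.0856) and trend with robust variance (adjusted p = 0.0503) ended it as well. At 18 h Npc2 had 15842, 17865 and 17970 in NCFM cells and 11148 and 13801 in control cells, without overlap, and was called with the block (0.42 ± 0.09, adjusted p = 0.0049, where the alternatives reached 0.345) and not without it (adjusted p = 0.0747). An almost equally bright probe set of Npc2 was called without the block at 10 h (0.70, adjusted p = 0.0178 with every probe set tested) and 18 h (0.70, adjusted p = 0.0187). A dim one was called at all 3 times (0.52, 0.65 and 0.62), and another at none. Npc1 itself had -0.52 ± 0.26, -0.08 ± 0.29 and 0.10 ± 0.29, and was called lower at 4 h with the block (adjusted p = 0.00399, against 0.201 without it and up to 0.455 over the alternatives). Lipa, the acid lipase of cholesteryl esters, had -0.30 ± 0.43, -0.65 ± 0.48 and -0.07 ± 0.48, and Psap, the precursor of the saposins, lay between -0.09 and -0.01.

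None of the 3 measured membrane proteins was called, where 18.3%, 24.7% and 23.7% of all genes were at 4, 10 and 18 h. At an unadjusted p under 0.05 there was 1, Lamp2 at 10 h. Lamp1, a heavily glycosylated protein that lines the lysosomal membrane, had -0.14 ± 0.13, -0.15 ± 0.14 and -0.23 ± 0.14 at 4, 10 and 18 h. Its relative Lamp2, which serves chaperone-mediated autophagy, had 5563, 7085 and 8184 on the NCFM arrays at 10 h and 3572 and 4938 on the control arrays. Its groups did not overlap at 10 h, where the difference was 0.71 ± 0.29 (adjusted p = 0.102). With the block Lamp2 was called higher at 10 h (0.56 ± 0.10, adjusted p = 0.00133) and 18 h (0.32 ± 0.10, adjusted p = 0.027), and Lamp1 lower at 18 h (-0.29 ± 0.08, adjusted p = 0.0207). Over the alternatives these 3 p-values reached 0.501, 0.786 and 0.618. A dimmer probe set of Lamp2 was called at 10 and 18 h without the block (0.86 and 0.85, adjusted p = 0.0136 and 0.0148 with every probe set tested). Cd68, a membrane glycoprotein of macrophages and dendritic cells, had -0.10 ± 0.35, 0.24 ± 0.39 and 0.21 ± 0.39.

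Tfeb had 478, 468 and 428 on the NCFM arrays at 4 h and 579, 625 and 715 on the control arrays. At 10 h it had 457, 536 and 498, against 736 and 642 in control cells. At 18 h it had 452, 589 and 650, against 550 and 746 in control cells. NCFM arrays lay below control arrays at 4 and 10 h and overlapped them at 18 h. Tfeb fell 1.39-fold at 4 h (-0.48 ± 0.14, adjusted p = 0.0364), and its difference of -0.47 ± 0.16 at 10 h missed the threshold (adjusted p = 0.05). At 18 h it was -0.20 ± 0.16. The 4 h call was lost without any array of NCFM 4 h (adjusted p = 0.0602, 0.0733 and 0.111 without replicates 1, 2 and 3), without control 4 h replicate 2 (adjusted p = 0.0849) or without control 4 h replicate 3 (adjusted p = 0.139). Quantile normalization (-0.33, adjusted p = 0.121) and spike-in centring (-0.29, adjusted p = 0.162) also took it away, over a range of 0.00489 to 0.162. With the block Tfeb was called at 10 h too (-0.51 ± 0.15, adjusted p = 0.0233, where the alternatives reached 0.306). Mcoln1, the lysosomal calcium channel whose opening activates Tfeb, had differences of 0.01, -0.01 and 0.10, each with an SE of 0.08 or 0.09. Its other probe sets were lower. An almost equally bright one had -0.275, -0.21 and -0.155 and was not called. A dim one was called at 4 h (-0.317, adjusted p = 0.0407 with every probe set tested) and not at 10 or 18 h (-0.138 and -0.126).

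The proton pump has a membrane sector, V0, that conducts protons and a cytosolic sector, V1, that hydrolyses ATP. Of 14 measured pump genes 1 was called at 4 h, 3 at 10 h and 3 at 18 h, and their directions differed. These are 7.14%, 21.4% and 21.4%, against 18.3%, 24.7% and 23.7% of all genes. In V0, 1 of 6 genes was called at each time, Atp6v0d2, an isoform of subunit d known from osteoclasts. It had 1538, 1661 and 1914 on the NCFM arrays at 4 h and 2296, 3237 and 2957 on the control arrays. The 10 h NCFM arrays had 1418, 1609 and 1381, against 2566 and 3071 in control cells. At 18 h it had 1054, 1597 and 1386, against 2630 and 3815 in control cells. Every NCFM array at any time lay below every control array at any time. Atp6v0d2 fell 1.65-fold at 4 h (-0.72 ± 0.18, adjusted p = 0.0157), 1.92-fold at 10 h (-0.94 ± 0.20, adjusted p = 0.00524) and 2.39-fold at 18 h (-1.26 ± 0.20, adjusted p = 8.9e-04). The calls at 10 and 18 h held under all 25 alternatives. The 4 h call was lost without NCFM 4 h replicate 1 (adjusted p = 0.0543), control 4 h replicate 2 (adjusted p = 0.0715) or control 4 h replicate 3 (adjusted p = 0.0586), and after spike-in centring (adjusted p = 0.0633), over a range of 5.93e-04 to 0.0715. A dimmer probe set was called at 4 and 18 h (-0.53 and -0.78) and not at 10 h (-0.40).

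Atp6v0d1, the other isoform of subunit d, had -0.10 ± 0.09, -0.25 ± 0.11 and -0.26 ± 0.11 and was not called. Atp6v0a1, an isoform of the large subunit a, had 0.19 ± 0.25, -0.65 ± 0.28 and -0.68 ± 0.28. It was called lower with the block at 10 h (-0.61 ± 0.20, adjusted p = 0.0384) and 18 h (-0.64 ± 0.20, adjusted p = 0.0309), with values up to 0.81 and 0.349 over the alternatives. A dim probe set of Atp6v0a1 had the opposite sign at 10 h (0.23, adjusted p = 0.0186 with every probe set tested). Tcirg1, the isoform of subunit a that osteoclasts use, had 0.29 ± 0.22, 0.22 ± 0.25 and 0.09 ± 0.25, and was called at 4 h with the block (0.29 ± 0.06, adjusted p = 0.00334, against 0.408 without it and up to 0.746 over the alternatives). Atp6v0b, a subunit of the proteolipid ring, lay between -0.18 and -0.10, and Atp6v0e, a small membrane subunit, between -0.38 and 0.27.

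In V1 both directions were present. Atp6v1d, a subunit of the rotating stalk, had 3350, 2864 and 2682 on the NCFM arrays at 4 h and 2622, 2637 and 2390 on the control arrays. At 10 h it had 4916, 4600 and 4593, against 2397 and 2555 in control cells. At 18 h it had 3857, 3890 and 3829, against 2696 and 2590 in control cells. NCFM arrays lay above control arrays at all 3 times, by little at 4 h (0.21 ± 0.07, adjusted p = 0.0672). Atp6v1d rose 1.90-fold at 10 h (0.93 ± 0.08, adjusted p = 1.6e-05) and 1.46-fold at 18 h (0.55 ± 0.08, adjusted p = 5.95e-04), under all 25 alternatives, and each of its 3 probe sets was called at 10 and 18 h. With the block it was called at 4 h too (adjusted p = 0.0324, where the alternatives reached 0.224).

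Atp6v1e1, a subunit of the outer stalk, had 4748, 6088 and 6047 on the NCFM arrays at 10 h and 3380 and 3977 on the control arrays. The groups did not overlap, and Atp6v1e1 rose 1.53-fold (0.61 ± 0.19, adjusted p = 0.0318). The call did not hold without control 10 h replicate 1 (0.49, adjusted p = 0.235), control 10 h replicate 2 (adjusted p = 0.0509), NCFM 10 h replicate 2 (adjusted p = 0.0967) or NCFM 10 h replicate 3 (adjusted p = 0.0965), over a range of 7.54e-04 to 0.235. Spike-in centring left 0.36 (adjusted p = 0.142), and the block added a call at 4 h (0.30 ± 0.07, adjusted p = 0.0104, where the alternatives reached 0.552).

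Atp6v1b2, a nucleotide-binding subunit of the ATPase ring, had 2923, 3030 and 3689 on the NCFM arrays at 18 h and 4165 and 4927 on the control arrays. The groups did not overlap, and Atp6v1b2 fell 1.42-fold (-0.50 ± 0.14, adjusted p = 0.0216). The call did not hold without control 18 h replicate 2 (-0.38, adjusted p = 0.182), NCFM 18 h replicate 1 (adjusted p = 0.0628) or NCFM 18 h replicate 2 (adjusted p = 0.0702), without all arrays numbered 1 (adjusted p = 0.0845) or with only the groups compared (adjusted p = 0.0858), over a range of 9.9e-04 to 0.182. Its second brightest probe set was called at 18 h as well (-0.53), while a dim one had the opposite sign at 10 h (0.42, against -0.06). The block added a call at 4 h (-0.28 ± 0.09, adjusted p = 0.031, where the alternatives reached 0.579).

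The other V1 genes were not called. Atp6v1a, the catalytic subunit, had 0.13 ± 0.29, 0.01 ± 0.33 and 0.43 ± 0.33, though its dimmer probe set was called at 18 h (0.88, adjusted p = 0.0111 with every probe set tested). Atp6v1c1, which regulates the union of the sectors, lay between 0.04 and 0.33. Atp6v1h, also regulatory, had 1598, 2116 and 3001 on the NCFM arrays at 4 h and 1467, 1498 and 1588 on the control arrays. These groups did not overlap, and NCFM 4 h replicate 3 was far above its partners. The difference was 0.51 ± 0.19 (adjusted p = 0.078), and the block called it (adjusted p = 0.0162, where the alternatives reached 0.265). Atp6v1f, a stalk subunit, had 4286, 4452 and 1572 on the NCFM arrays at 4 h and 4589, 4981 and 4863 on the control arrays. NCFM 4 h replicate 3 was the lowest of all 16 arrays for Atp6v1f, and for Atp6v0e it had 3556 where its partners had 5681 and 5751. Atp6ap1, an accessory protein of the pump, had -0.15 ± 0.17, -0.53 ± 0.19 and -0.48 ± 0.19, and was called with the block at 10 h (-0.60 ± 0.10, adjusted p = 0.00113) and 18 h (-0.55 ± 0.10, adjusted p = 0.00187), against 0.0592 and 0.0868 without it and up to 0.365 and 0.494 over the alternatives.

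Whether the NCFM effect itself differed between times was tested as a difference of differences. From 4 to 10 h it differed for 3 of 43 members (6.98%, against 0.506% of all genes): Gusb (-0.97 ± 0.16, adjusted p = 0.0269), Manba (-0.997 ± 0.161, adjusted p = 0.0257) and Atp6v1d (0.71 ± 0.11, adjusted p = 0.0229). From 4 to 18 h it differed for 2 members (4.65%, against 3.4% of all genes), Gusb (-1.41 ± 0.16, adjusted p = 0.00126) and Manba (-0.69 ± 0.16, adjusted p = 0.0392). When dim genes were removed, 1.03% of those left differed from 4 to 10 h and 7.31% from 4 to 18 h. The share of the members lies above the first of these and below the second. With the block 6 members differed in each comparison (14%, against 2.51% and 9.15% of all genes), which added Ctsk, Gla and Man2b1 to both and Atp6v1d to the later one. The 4 to 18 h difference of Gusb held under all 25 alternatives. The other differences were lost without single arrays. For Gusb from 4 to 10 h these were NCFM 10 h replicates 2 and 3, control 4 h replicates 2 and 3 and control 10 h replicate 1, with adjusted p-values up to 0.145, and the same arrays took away that of Manba (up to 0.105). For Atp6v1d they were NCFM 4 h replicate 2, NCFM 10 h replicates 2 and 3, control 4 h replicate 2 and control 10 h replicate 1 (up to 0.159). The 4 to 18 h difference of Manba was lost without any of 9 arrays, with adjusted p-values up to 0.13: NCFM 4 h replicates 1 and 3, NCFM 10 h replicate 2, NCFM 18 h replicates 1 and 2, control 4 h replicates 1, 2 and 3 and control 18 h replicate 2.

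Within NCFM cells 4 members differed between 10 and 4 h (9.3%, against 6.28% of all genes and 12.1% of those left when dim genes were removed). Atp6v1d was higher at 10 h (0.67 ± 0.07, adjusted p = 3.81e-04) and so was Ctsk (0.94 ± 0.22, adjusted p = 0.0233), while Gusb (-0.87 ± 0.11, adjusted p = 6.95e-04) and Manba (-1.09 ± 0.11, adjusted p = 2.62e-04) were lower. The block raised this count to 13 (30.2%, against 12.6% of all genes). The call of Ctsk was lost without NCFM 4 h replicate 1 or 2 or NCFM 10 h replicate 2 or 3 (adjusted p up to 0.106 over the alternatives). Between 18 and 10 h 1 member differed, Smpd1 (0.46 ± 0.07, adjusted p = 0.0064, 2.33% against 2.79% of all genes), and with the block 4 did (9.3%, against 7.23%). Without the block 5.18% of the genes left when dim ones were removed differed between these times. The call of Smpd1 was lost when only the groups compared were fitted (adjusted p = 0.0688). Within control cells no member was called between 18 and 4 h by limma, with or without the block, and of all genes 0% were called without it and 0.0055% with it. At an unadjusted p under 0.05 there were 3 members, Gusb (0.38 ± 0.12), Smpd1 (0.21 ± 0.08) and Mcoln1 (0.19 ± 0.09).

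The arrays numbered 1 stood apart for many members. In each of the 6 groups the array numbered 1 was below the mean of its partners for 24 of 43 members and above it for none, which is 55.8% on the same side in all groups, against 18.1% of all genes (1517 above and 1770 below). Ctsl differed most, by -0.96 on average, and the number 1 arrays had 5677 to 8011 where all others had 11022 to 16623, with no overlap. Lipa (-0.76), Cd68 (-0.70) and Gla (-0.68) came next. Gusb (-0.03), Manba (-0.03) and Atp6v1d (0.07) differed little. By role, 8 of 10 cathepsins, 5 of 8 glycosidases and sulfatase, 4 of 6 lipid genes, 3 of 3 membrane proteins and 4 of 14 pump genes were lower in all 6 groups. Of 9 macrophage and monocyte markers 8 were lower on these arrays in all 6 groups (median difference -0.63), and of 9 granulocyte markers 2 were higher and none lower in all 6 (median 0.58). Of 12 dendritic cell markers 3 were higher and 1 lower in all 6 (median 0.23). In such bulk samples fewer cells of a type and less RNA per cell cannot be told apart. Without the arrays numbered 1, which leaves 1 control array at 10 and at 18 h, assumed to vary like the other groups, 5 members were called higher and 8 lower at 4 h, 10 and 10 at 10 h, and 10 and 8 at 18 h (of all genes, 7.55% higher and 17.5% lower, 25% in all, at 4 h, 7.48% and 17%, 24.4% in all, at 10 h, and 8.51% and 21.3%, 29.8% in all, at 18 h). Without them the shares of all genes whose effect differed were 1.7% from 4 to 10 h and 8.76% from 4 to 18 h, and in NCFM cells 14% of all genes differed between 10 and 4 h and 7.06% between 18 and 10 h. Of the 26 calls all but those of Smpd1 at 4 h and Atp6v1b2 at 18 h were made there as well.

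**Figure D3:**
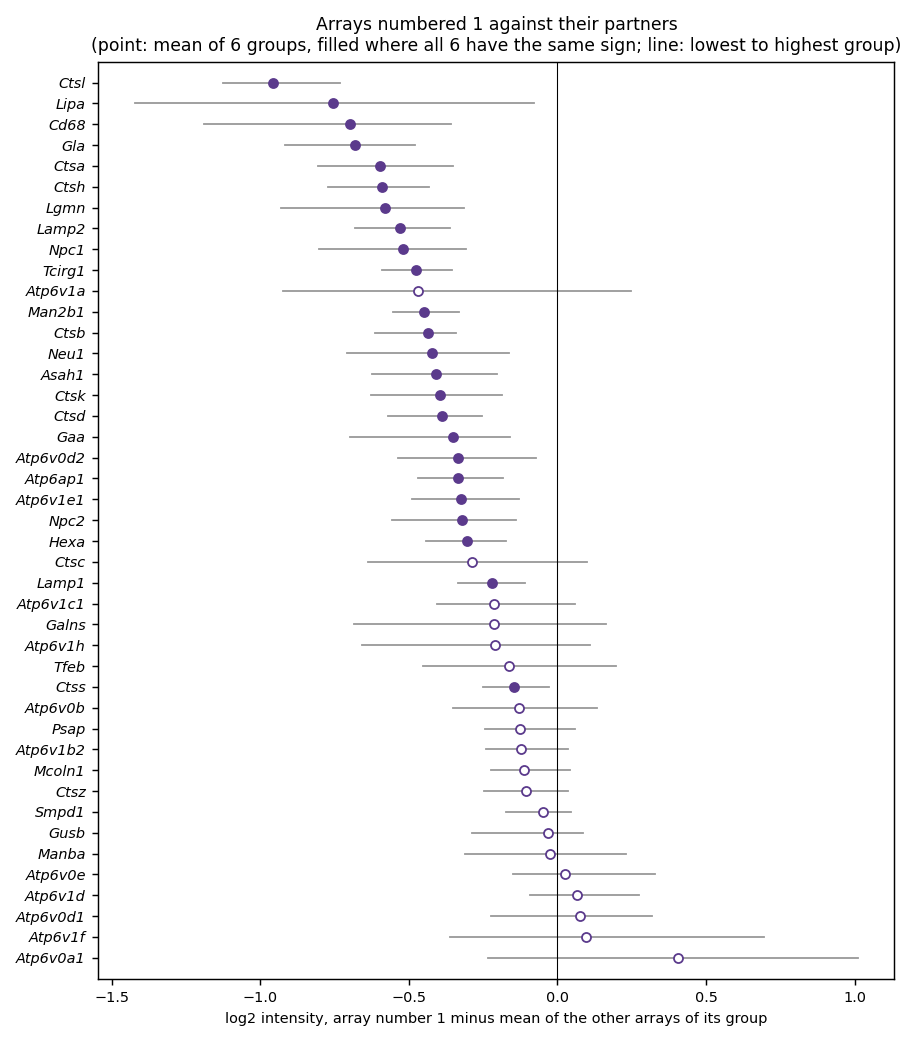
Log2 intensity of the array numbered 1 minus the mean of the other arrays of its group for each of 43 lysosomal genes; points are the mean of 6 groups, filled where all 6 have the same sign, and lines run from the lowest to the highest group. The filled points all lie below 0, with Ctsl at the top at -0.96, and Gusb and Manba lie near 0.

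Markers of other cell types were read beside these values. The dendritic cell markers Itgax, Cd74, H2-Ab1 and H2-Eb1 were at or above percentile 97.2 of probe sets by mean intensity, Flt3 and Zbtb46 were dimmer (percentiles 74 and 79.8), and Xcr1 was at percentile 40.1. Of 12 dendritic cell markers 1 fell at 10 h (Itgax, -0.61 ± 0.18, adjusted p = 0.0262), where Zbtb46 was called higher with the block (0.81 ± 0.20). At 18 h 3 fell: Itgax (-0.81 ± 0.18, adjusted p = 0.00622), Cd74 (-0.23 ± 0.07) and Ciita (-0.54 ± 0.17). The summed intensity of 9 macrophage and monocyte markers was 32820 to 64620 in NCFM cells and 34018 to 55955 in control cells at 4 h. At 10 h it was 29719 to 51714 in NCFM cells and 29481 to 59139 in control cells, and at 18 h 36112 to 50688 in NCFM cells and 43249 to 64111 in control cells. Among them Fcgr1 was called higher at all 3 times, Marco and Mertk at 10 h and Marco at 18 h, and Mrc1, the mannose receptor, lower at all 3 times (-3.58 ± 0.18 at 18 h). With the block Csf1r was also called lower at 4, 10 and 18 h (-0.36, -0.80 and -0.71), and C1qa (-1.26 and -1.94) and C1qb (-0.66 and -1.52) at 10 and 18 h. In the blocked fit 4 of 9 were higher and 2 lower at 4 h, where 1 was higher and 1 lower without the block. At 10 h 3 were higher and 4 lower with it, and at 18 h 2 were higher and 4 lower. The NCFM arrays of Csf1r, C1qa and C1qb all lay below the control arrays at 18 h. The summed intensity of 9 granulocyte markers was 10731 to 40822 in NCFM cells and 29984 to 43071 in control cells at 4 h, 15668 to 41492 in NCFM cells and 43258 to 54724 in control cells at 10 h, and 6409 to 19412 in NCFM cells and 26447 to 28691 in control cells at 18 h. Of these 9 markers 3 fell at 10 h (Elane, Prtn3 and Ltf) and 2 at 18 h (Prtn3 and Ltf). Mpo was at percentile 57.2, and Ngp, S100a8 and S100a9 were at or above 98.1. Markers of T, B, NK and erythroid cells summed to 849 to 980 on every array. The part of these marker differences in the members' values was not tested.

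Other lysosomal genes were counted for comparison. Of 93 such genes 4 were higher and 19 lower at 4 h, 5 and 23 at 10 h, and 2 and 22 at 18 h, with medians of -0.17, -0.15 and -0.17. The shares called were 24.7%, 30.1% and 25.8%, against 18.3%, 24.7% and 23.7% of all genes, and with the block 39.8%, 45.2% and 48.4%, against 26.8%, 31.1% and 30.5%. When dim genes were removed, 31.7%, 39.3% and 38.8% of those left were called without the block, with medians of -0.162, -0.19 and -0.174. The shares of the 93 genes without the block lie below these, but the 93 include dim genes too, such as Arsg with 86 to 114. Of 33 other lysosomal enzymes none was called higher and 8, 13 and 12 were called lower (24.2%, 39.4% and 36.4%). Of all genes 13.1%, 16.5% and 16.3% were lower and 5.27%, 8.21% and 7.4% higher. Of the 9097 genes left when dim genes were removed, 2127, 2618 and 2630 were lower and 756, 953 and 900 higher. Named by the size of their difference among those called at 2 or 3 times, 9 of 10 were lower, the more frequent direction over all genes too. The exception was Cst7, cystatin F, an inhibitor of cysteine cathepsins, with 511, 546 and 409 on the NCFM arrays at 4 h and 341, 236 and 282 on the control arrays. In NCFM cells of 10 h it had 1526, 1551 and 2125, against 447 and 264 in control cells, and at 18 h 1392, 1977 and 2015, against 323 and 285. NCFM arrays lay above control arrays at each time, and Cst7 rose 4.99-fold at 10 h (2.32 ± 0.25, adjusted p = 5.21e-05) and 5.83-fold at 18 h (2.54 ± 0.25, adjusted p = 3.17e-05). At 4 h it had 0.78 ± 0.22 (adjusted p = 0.0291), a call lost without NCFM 4 h replicate 1 or 2 or control 4 h replicate 2 or 3 (adjusted p up to 0.117). Naaa, an acid amidase of N-acylethanolamines, fell at 10 h (-1.63 ± 0.26) and 18 h (-1.85 ± 0.26). Pla2g15, the lysosomal phospholipase, fell at all 3 times (-0.86, -1.38 and -1.25), and so did Tpcn1, an endolysosomal cation channel (-0.97, -1.27 and -1.16).

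Slc36a1, a lysosomal amino acid exporter, fell by most at 4 h (-1.31 ± 0.16) and had -0.95 and -0.73 at 10 and 18 h, and leaving out control 18 h replicate 2 ended the 18 h call (adjusted p up to 0.107). Lamtor4, of the complex that anchors mTORC1 to the lysosome, fell at all 3 times (-1.35, -1.66 and -1.38), and its 18 h call was lost without control 18 h replicate 2 (up to 0.153). Dpp7, a dipeptidyl peptidase (-1.01 and -1.48), and Nagpa, which uncovers the mannose 6-phosphate tag of hydrolases (-1.07 and -0.87), fell at 10 and 18 h. Dnase2a, the acid nuclease, fell at 4 h (-1.10) and 18 h (-1.10), and these calls were lost without NCFM 4 h replicate 3, NCFM 18 h replicate 3, control 4 h replicates 2 or 3 or control 18 h replicate 2 (adjusted p up to 0.0615 at 4 h and 0.238 at 18 h). Tfec, a relative of Tfeb, had 0.78 ± 0.27 at 4 h without a call (adjusted p = 0.064) and fell at 10 h (-1.24 ± 0.30) and 18 h (-1.40 ± 0.30). Leaving out control 10 h replicate 1 ended the 10 h call of Tfec, as control 18 h replicate 1 did the 18 h call (adjusted p up to 0.0685 and 0.0571). Its NCFM effect differed between 18 and 4 h (-2.18, adjusted p = 0.0129), a call lost without control 18 h replicate 1 (adjusted p = 0.0521).

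**Figure D4:**
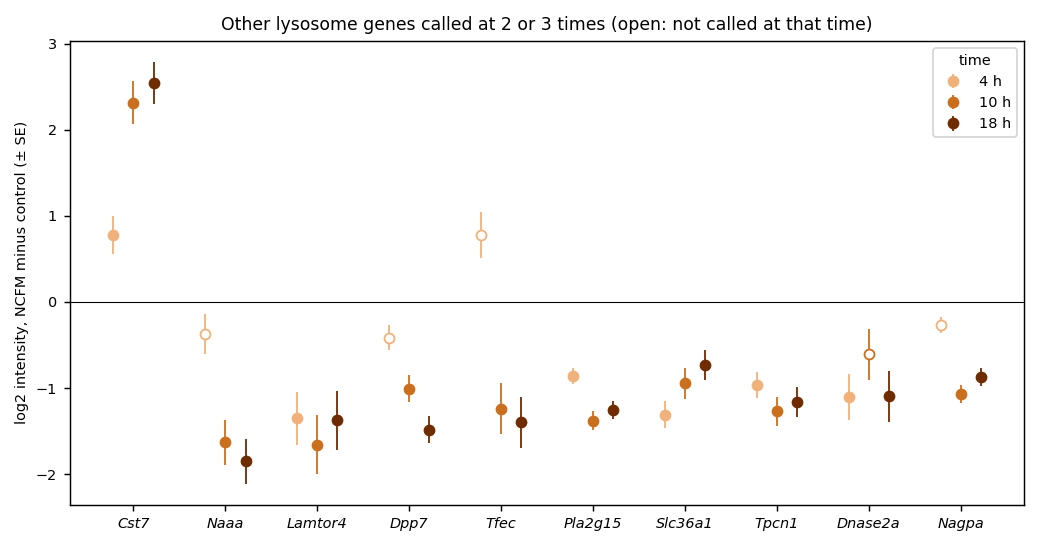
Log2 intensity difference, NCFM minus control, with SE, of the 10 named lysosomal genes outside the list at 4, 10 and 18 h; open points did not pass at that time. Cst7 is the gene with positive differences at all 3 times, and Tfec lies above 0 at 4 h and below 0 at 10 and 18 h.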

How the data were processed

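The deposited table holds 1 intensity for each of 45101 probe sets on each of 16 arrays, linear whole numbers from 42 to 31573 that the authors had normalized between arrays. The method of summary, background correction and normalization was not given in the sources used. Array medians ran from 162 to 167, and precision is limited by the number of arrays. The probe table names 1 gene for 34945 probe sets and several for 932, names none for 9160, and 64 are controls. Only probe sets naming 1 gene were tested, and 34741 of their gene IDs were found in the reference gene table.

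Intensities were taken to log2, with 1 probe set a gene (highest mean log2 intensity over the 16 arrays). All 18193 genes were fitted in limma 3.58.1 (R 4.3.3) with a mean per group (lmFit, eBayes, 10 residual degrees of freedom), two-sided, with Benjamini-Hochberg adjustment over all genes. The fit was tested on simulated data. Tables and figures were made with Python 3.11.15 and matplotlib 3.10.9.

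Deviations from the group means correlated over genes for all 36 pairs of arrays with the same number in different groups (0.19 to 0.75), so the numbers were taken as pairs, and a blocked fit is given as an alternative. Between different numbers (70 pairs) the correlations ran from -0.75 to 0.73. Leaving out 1 of the 10 or 18 h controls leaves a single control array, assumed to vary like the other groups. Alternatives were the block, quantile normalization, centring on spike-in probe sets, subtraction of percentile 5 of intensity, probe sets averaged per gene, removal of dim genes, robust variances with an intensity trend, only the groups compared, the arrays numbered 1 left out, an adjusted p under 0.01, and each array left out in turn.

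Every member may be named, with values on each array for those called, and of the other lysosome genes the 10 with the largest difference among those called at 2 or 3 times. Tfeb sites and each gene's probe sets were read as descriptions, without a test. The members and lists were chosen with earlier results of these data known.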

Additional observations from a re-analysis of the deposited data

Results flagged for a closer look

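The NCFM effect of 3 members differed between times by the test of the difference itself. For Gusb it was -0.969 on the log2 scale from 4 to 10 h (adjusted p = 0.0269) and -1.412 from 4 to 18 h (adjusted p = 0.00126). For Manba it was -0.997 (adjusted p = 0.0257) and -0.686 (adjusted p = 0.0392). For Atp6v1d it was 0.713 from 4 to 10 h (adjusted p = 0.0229). No group has more than 3 arrays, so single outlying arrays were not tested for.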

How the results depend on the processing

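No difference of a called member changed sign under any of the 25 alternative fits, and 12 of the 26 calls were made under each of them. These were Gusb and Manba at all 3 times, Man2b1, Atp6v0d2 and Atp6v1d at 10 and 18 h. The block took away 0 of the 26 calls. Numbers of members called follow in the order higher and lower at 4 h, higher and lower at 10 h, higher and lower at 18 h, where the values reported are 0, 5, 5, 6, 3 and 7. They were 5, 11, 8, 12, 6 and 11 with the block, 5, 8, 10, 10, 10 and 8 without the arrays numbered 1, 2, 2, 3, 11, 3 and 6 after spike-in centring, and 0, 3, 5, 7, 5 and 6 after quantile normalization. Averaging probe sets gave 1 higher at 4 h and 5 higher at 18 h, only the groups compared gave 4 lower at 18 h, and an adjusted p under 0.01 gave 3 lower at 4 h, 2 higher at 10 h, and 1 higher and 4 lower at 18 h. With 1 array left out they ranged from 0 to 1, 3 to 5, 1 to 6, 5 to 8, 1 to 5 and 5 to 8. Spike-in centring moved the median of all genes by 0.192, -0.253 and 0.003 at 4, 10 and 18 h. Over all genes 959 were higher and 2376 lower at 4 h, against 3312 and 738 after spike-in centring and 1223 and 1612 after quantile normalization. At 10 h 1493 were higher and 2995 lower, against 647 and 6185 and against 2352 and 2171, and at 18 h 1347 and 2973, against 846 and 2280 and against 2161 and 2170.

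Members whose effect differed between 10 and 4 h (3) numbered 6 with the block, 10 after spike-in centring (where 52.5% of all genes did), 1 with trend and robust variance, 0 at an adjusted p under 0.01 and 0 to 3 with 1 array left out. Between 18 and 4 h (2) they numbered 6 with the block, 7 without the arrays numbered 1, 1 with trend and robust variance, with only the groups compared and at an adjusted p under 0.01, and 1 to 2 with 1 array left out. Members that differed between 10 and 4 h in NCFM cells (4) numbered 13 with the block, 13 after spike-in centring (where 34.2% of all genes did) and 13 without the arrays numbered 1, and 3 to 5 with 1 array left out. Between 18 and 10 h (1) they numbered 4 with the block, 5 without the arrays numbered 1, 2 with the mean of probe sets, 0 with only the groups compared, and 1 to 2 with 1 array left out. The cause of these shifts was not tested. Depth is not defined for arrays, and dim probe sets lie near the background.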
